A study of Mus musculus with 2 samples.

Results

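The homeobox gene Uncx and the synaptic adhesion gene Elfn1 are neighbours on mouse chromosome 5, and both carried several macroH2A1 peaks in embryonic stem cells. The regions described here are all deposited peaks listed under Uncx or Elfn1 and all deposited peaks between positions 139800000 and 140700000 of that chromosome. They number 9 of the 2560 peaks of the list, 4 under Uncx and 5 under Elfn1. The window held no peak listed under another gene. Both genes were chosen by their counts of peaks in this list, so the counts and positions below are a description and no test was applied to them.

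The data come from chromatin immunoprecipitation followed by sequencing (ChIP-seq) of untreated E14 cells, an established line of mouse embryonic stem cells grown in serum with leukemia inhibitory factor. The series has 1 library made with an antibody raised against part of mouse macroH2A1 and 1 library made with non-specific IgG, both from these cells. There is no replicate, and no values of the IgG library were analysed here. The peak list gives positions, widths and an assigned gene, with no read count or enrichment per peak, so the depth behind each peak is unknown. The labelled cell type cannot be checked from a peak list, which holds no expression values. All positions of peaks and of their assigned genes are in mouse build NCBIM37 (mm9), as deposited.

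MacroH2A1 is a form of histone H2A with a large extra macro domain, best known from the inactive X chromosome and from silent developmental genes. Uncx encodes a paired-type homeodomain transcription factor, which marks the caudal part of each somite and is needed for the pedicles and transverse processes of the vertebrae and for the proximal ribs. Elfn1 encodes a membrane protein with extracellular leucine-rich repeats and a fibronectin type III domain. At synapses onto certain interneurons and in the retina it binds metabotropic glutamate receptors of the facing cell.

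The sequences just before both gene starts are shown because neither start carried a peak, and because the pair differs there in CpG content. Each is 250 bases upstream of the start in RefSeq, on the plus strand of build GRCm38.p6, with every CpG in capitals. These positions belong to a later build than those of the peaks and cannot be set against them. The Uncx sequence lies at chr5:139543648-139543897 and the Elfn1 sequence at chr5:139907616-139907865.
Uncx: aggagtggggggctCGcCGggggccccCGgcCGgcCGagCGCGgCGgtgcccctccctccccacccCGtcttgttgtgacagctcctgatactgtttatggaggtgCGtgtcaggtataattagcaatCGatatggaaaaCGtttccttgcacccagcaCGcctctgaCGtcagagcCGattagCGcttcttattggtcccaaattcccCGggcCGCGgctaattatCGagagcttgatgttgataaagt
Elfn1: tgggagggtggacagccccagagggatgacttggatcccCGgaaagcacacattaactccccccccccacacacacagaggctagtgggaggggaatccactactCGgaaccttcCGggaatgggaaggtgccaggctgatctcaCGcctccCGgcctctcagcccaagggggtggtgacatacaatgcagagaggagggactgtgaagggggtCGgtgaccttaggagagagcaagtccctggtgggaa

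The Uncx sequence held 20 CpG dinucleotides and the Elfn1 sequence 6, against a median of 6 over the 32851 promoters of the same length in the table. As many CpGs as before Uncx, or more, were found in 17.9% of promoters, and as many as before Elfn1, or more, in 50.4%. In G and C content the sequences were closer, 58.4% for Uncx and 60.8% for Elfn1, with a median of 52.4% over all promoters. The letters TAATTA, a palindrome that reads the same on both strands, contain the TAAT core that many homeodomain proteins bind. They occurred 2 times before Uncx and 0 times before Elfn1. At least 1 copy was found in 4.84% of all promoters and at least 2 in 0.444%. This motif was chosen after the sequences had been seen, shares no letters with a CpG, and is a match of letters only.

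At Uncx, a gene of 3.85 kb on the plus strand (ENSMUSG00000029546, 140019880 to 140023728), all 4 peaks lay outside the gene. A single peak was upstream, at 140001750 to 140003650, 16.2 kb before the gene start. The other 3 were downstream of the gene. Their positions were 140041800 to 140043100, 140061950 to 140063900 and 140081550 to 140083250, and their near edges lay 18.1, 38.2 and 57.8 kb past the gene end. The gene itself thus sat inside a stretch of 38.1 kb free of peaks, with the first peak 16.2 kb before its start and the second 18.1 kb past its end. Measured from the start of each peak to the start of the next, the steps along the chromosome were 40.05, 20.15 and 19.6 kb. The 4 peaks covered 6.85 kb of a span of 81.5 kb, or 8.41% of it.

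At Elfn1, a gene of 66.8 kb on the plus strand (ENSMUSG00000048988, 140383897 to 140450665), all 5 peaks lay inside the gene. The first was at 140399550 to 140400750, 15.7 kb past the gene start, and the second at 140404100 to 140406000. After a wider gap came the peaks at 140418250 to 140420350, 140422400 to 140424350 and 140429200 to 140431250. Their midpoints fell at 24.3%, 31.7%, 53.0%, 59.1% and 69.4% of the gene length, so the first 15.7 kb and the last 19.4 kb of the gene had no listed peak. The run from the first to the last peak spanned 31.7 kb, or 47.5% of the gene, and the peaks themselves covered 13.8% of the gene. Whether they lie in introns or exons was not determined, since no gene models of build mm9 were used here.

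**Figure D1:**
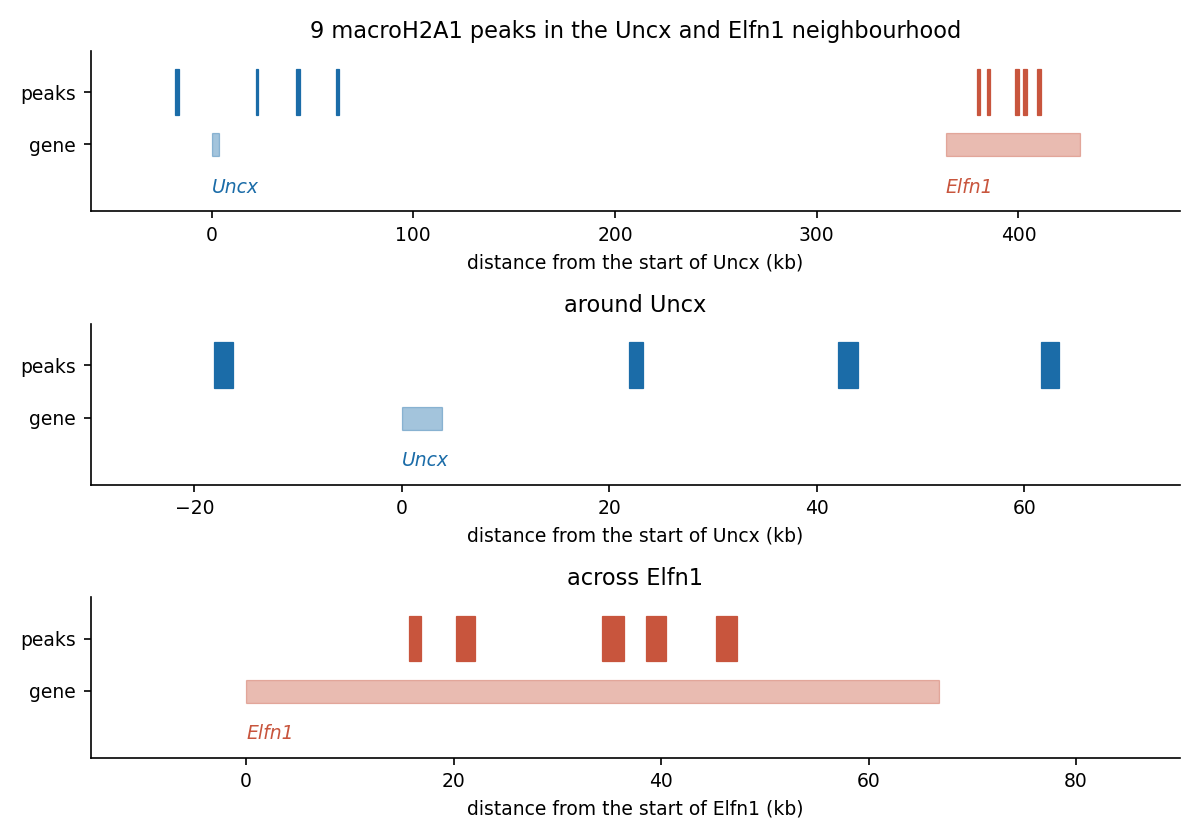
Positions of the 9 peaks (upper row of each panel) and of both genes (lower row) in kb from the start of Uncx (upper and middle panels) or of Elfn1 (lower panel), to scale. The 4 Uncx peaks flank the gene without touching it, and the 5 Elfn1 peaks lie within the gene between 15.7 kb from its start and 19.4 kb from its end.

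The runs differed in spacing. Between Elfn1 peaks the gaps, measured between facing edges, were 3.35, 12.2, 2.05 and 4.85 kb in order along the gene. Between Uncx peaks they were 38.1, 18.8 and 17.6 kb. Each Uncx gap was longer than each Elfn1 gap. From the last Uncx peak to the first Elfn1 peak there were 316 kb without a peak. Over the 8 gaps the median was 14.9 kb, against 490 kb over all 2538 gaps between adjacent regions of the list (interquartile range 161 to 1240 kb). Gaps under 5 kb numbered 3 of 8 here, all of them in Elfn1, and 2.40% of all gaps in the list. Gaps under 20 kb numbered 6 of 8, against 5.79% of all. The rule chose these genes for having many peaks, so nothing is read from short gaps beside the list.

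Other genes lie between the pair. In RefSeq order, 5 protein-coding genes stand between Uncx and Elfn1, and the list assigned 0 peaks to them. They are Micall2, Ints1 (the Integrator complex subunit that helps process small nuclear RNAs), Mafk (a small Maf transcription factor), Tmem184a and Psmg3 (a chaperone of proteasome assembly). The non-coding genes Gm46926, Mir7037 and Gm38727 stand there as well, and no peak was listed under any of these 3 names. The names come from a later build, so a gene missing from the annotation of the list could not match. On the far side of Elfn1 the next gene is Mad1l1, which encodes a spindle checkpoint protein, and on the far side of Uncx come the non-coding gene 4930500L23Rik and Zfand2a. No peak was listed under these either. Over all protein-coding genes only 6.15% had a listed peak, so nothing is read from its absence at these neighbours. Because the list gives each peak to the nearest gene start in the annotation its authors used, a peak assigned to Uncx could still lie within one of the non-coding neighbours, and this was not tested.

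Beyond the runs the chromosome was free of peaks for longer distances. The last peak before the Uncx run was a region of 2001 bp at 139311700 to 139313700, listed downstream of Fam20c, a gene for a secretory pathway kinase, and 688 kb away. The first peak after the Elfn1 run was a region of 1701 bp at 141309450 to 141311150, listed upstream of Gna12, a G protein subunit gene, and 878 kb away. These are the nearest peaks outside the window, and both lie well past its edges. Such distances are common in the list, where 41.3% of gaps were as long as that to the Fam20c peak and 34.7% as long as that to the Gna12 peak.

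**Figure D2:**
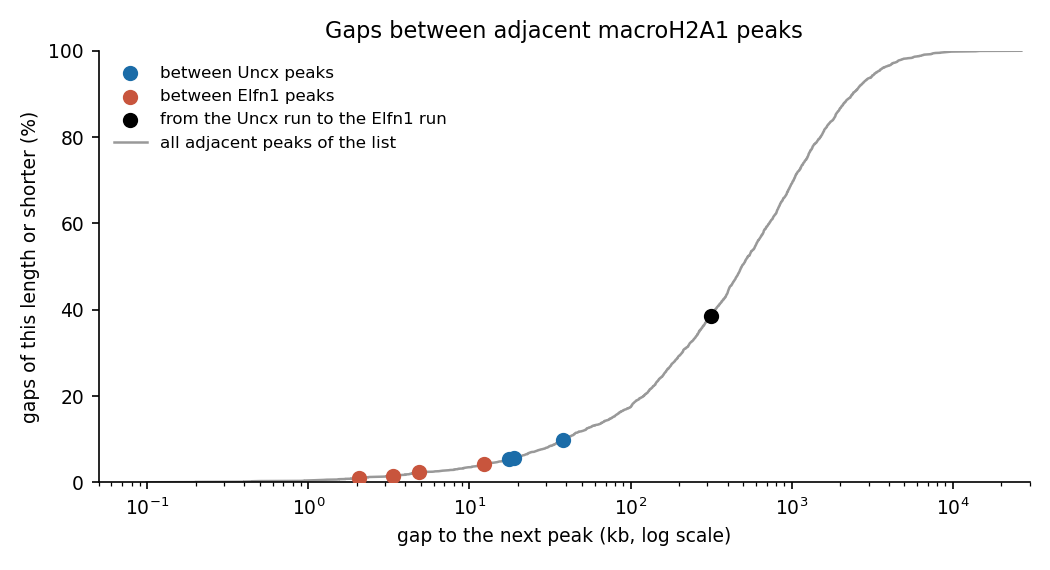
Share of gaps (vertical axis, percent) at or below each length (horizontal axis, kb, log scale) for all adjacent peaks of the list (line), with the 3 gaps between Uncx peaks, the 4 between Elfn1 peaks and the gap from one run to the other as points. The Elfn1 gaps are the shortest of these, from 2.05 to 12.2 kb, and the gap between the runs is 316 kb.

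Peak widths were 1901, 1301, 1951 and 1701 bp at Uncx, in order along the chromosome. At Elfn1 they were 1201, 1901, 2101, 1951 and 2051 bp. The narrowest of the 9 was thus the peak closest to the Elfn1 start, and the widest was the third Elfn1 peak. The median was 1901 bp over the 9 peaks, 1801 bp over those of Uncx and 1951 bp over those of Elfn1, against 1551 bp over the whole list (interquartile range 1301 to 1814 bp). Wider than the median of the list were 7 of the 9, and 6 exceeded its upper quartile, 2 at Uncx and 4 at Elfn1. The ranges of both genes overlap, and with peaks of 1 library no test of width was made. The numbers at the end of the peak names, whose meaning is not stated, ran from 99, for the third Elfn1 peak, to 2057, for the fourth, in a list that ends at 2560.

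**Figure D3:**
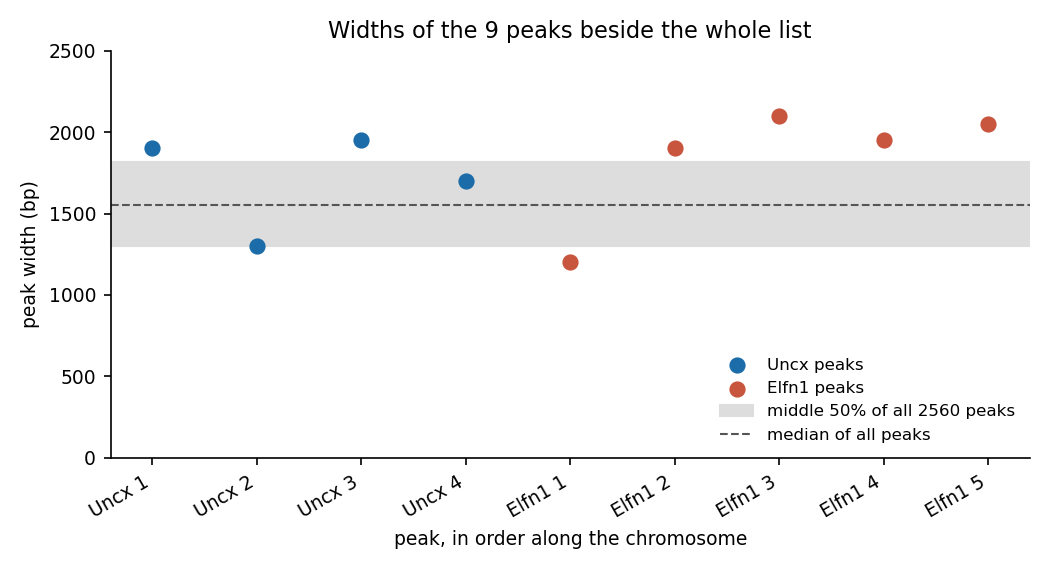
Width in bp of each of the 9 peaks, numbered in order along the chromosome within each gene, beside the median (dashed line) and the interquartile range (grey band) of the 2560 peaks of the list. Of the 9 points, 6 lie above the band, and the second Uncx peak and the first Elfn1 peak lie at or below its lower edge.

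The list assigned peaks to 2132 genes, of which 1817 had a single region. At least 4 regions were listed for 21 genes (0.985%) and at least 5 for 10 genes (0.469%). Elfn1 belongs to the 10 and Uncx to the 21 by the way they were chosen. Among the 21, the peaks of Elfn1 spanned the shortest distance and those of Uncx the third shortest, 31.7 and 81.5 kb, against a median span of 213 kb. Those of Eln, the elastin gene, came between them at 61.0 kb. In the distance from the gene start to the closest peak they were alike and in the middle of the 21, 16.2 kb for Uncx and 15.7 kb for Elfn1.

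Over the whole list, 364 of 2560 peaks (14.2%) lay inside their gene, so peaks outside, as at Uncx, were the usual case. No inside peak was listed for 15 of the 21 genes, Uncx among them. Of the 21, 11 are shorter than 5 kb, and Uncx is 1 of these. Elfn1 was the single gene of the 21 with all its peaks inside. At least 3 peaks inside the gene were listed for 5 of the 2132 genes (0.235%). Besides Elfn1 these were Tbx5, a T-box gene of heart and forelimb, and the neuronal genes Anks1b, Grin2a and Opcml, named here after their values were seen, each with 3. All listed peaks of Anks1b, Grin2a and Opcml lay inside the gene too, so this trait was not particular to Elfn1. Per 10 kb of gene, Elfn1 had 0.749 inside peaks and Tbx5 0.602. The other 3 genes are much longer and had from 0.0265 to 0.0760. Only these 5 of the 334 genes with at least 1 inside peak are compared in this way, and a short gene with 1 inside peak can have a higher value.

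**Figure D4:**
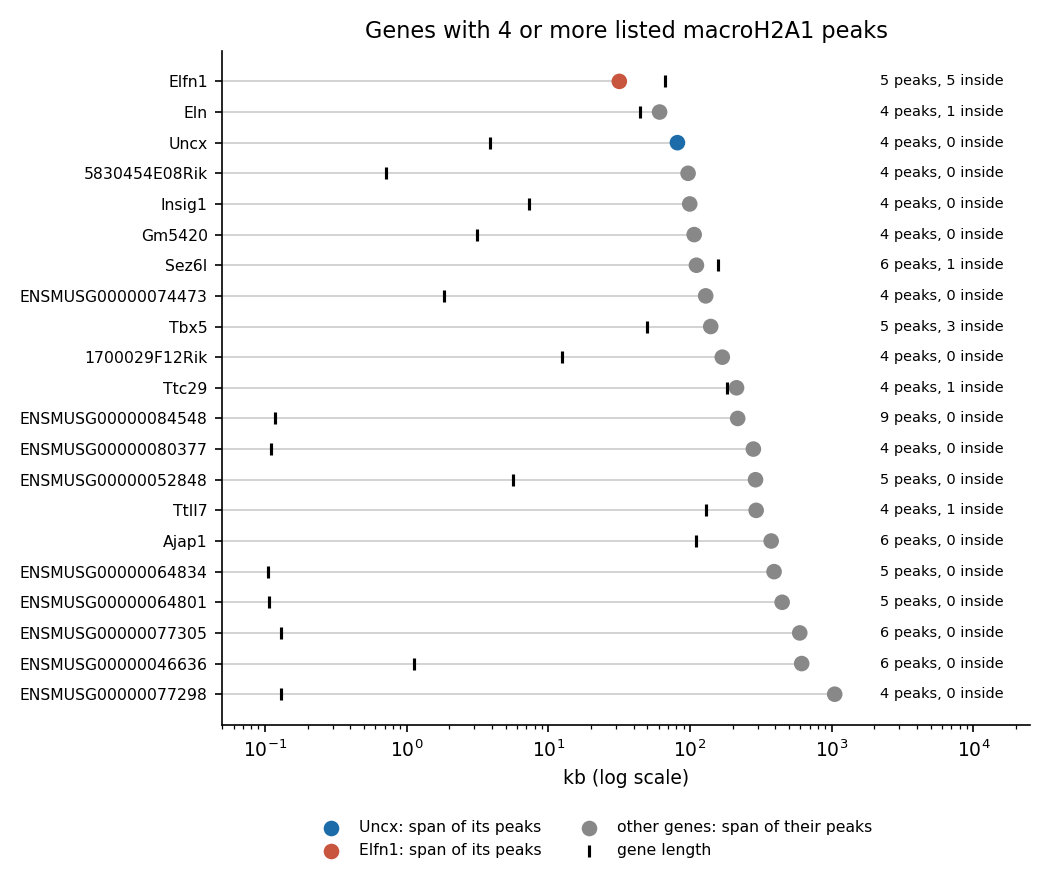
The 21 genes with at least 4 listed regions, from the shortest to the longest distance between the first and the last of their peaks (dots, kb, log scale), with gene length as a black tick and the number of peaks at the right. Elfn1 has the shortest span, 31.7 kb, and all its 5 peaks inside, while the 4 peaks of Uncx span 81.5 kb around a gene of 3.85 kb.

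Regardless of gene assignment, any run of consecutive peaks can be measured by its span. The run lengths and the window length used here come from the rule, which chose these genes for having many peaks. The ranks and shares below therefore describe the list, and nothing is read from them. For 5 consecutive regions, a length set by the peak count of Elfn1, the list held 2478 stretches. The stretch inside Elfn1 was the shortest of these, at 31.7 kb, and the median was 3.10 Mb. With peaks less than 5 kb apart joined, the 5 Elfn1 peaks became 2. This rank, and the place of Elfn1 among genes with at least 4 regions, thus rest on counting close peaks separately. For 4 consecutive regions, 23 of 2498 stretches (0.921%) were as short as that of Uncx or shorter. They fell in 13 separate places, 7 of them on chromosome 5, which held 9.77% of all peaks. Elfn1, Sez6l, Tbx5 and Eln were among these, as was a stretch at Pax7 on chromosome 4. The shortest stretch of 4 was not in Elfn1. It lay at the unnamed gene ENSMUSG00000084548 on chromosome 5 and spanned 20.6 kb, against 24.8 kb for the shortest inside Elfn1. For 9 consecutive regions, 8 of 2398 stretches (0.334%) were as short as the 429501 bp from the first Uncx peak to the last Elfn1 peak or shorter, in 5 separate places. The other 4 each held peaks listed under more than 1 gene. They lay on chromosome 4 (Pax7 and others), on chromosome 5 (Sez6l and others, and elsewhere ENSMUSG00000084548 and Tbx3) and on chromosome 9 (5830454E08Rik, Entpd3 and others). At the Tbx3 place, 9 peaks were listed under ENSMUSG00000084548. In windows of 900 kb set side by side along the autosomes and chromosome X, 3 of 2754 (0.109%) held at least 9 peaks, and the median window held 1. An edge of this grid split the 9 peaks, with 4 in a window and 5 in the next. With the grid shifted by 450 kb all 9 fell in 1 window, and 8 of 2751 windows (0.291%) held at least 9 peaks.

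Peaks at genes related in function to this pair were counted as well, from lists that leave out Uncx and Elfn1 themselves. The lists were drawn up with earlier results of these data known, so no interval below is a test against the share of all genes. Over all 21627 protein-coding genes, 6.15% had at least 1 listed peak. Regulators of somites and the axial skeleton had a peak at 5 of 27 genes (18.5%, 95% Wilson interval 8.18 to 36.7%). These were Pax3 and Pax7, paired-box genes of muscle and neural crest, Meox1, a homeobox gene of the somite, Tbx15, a T-box gene of skeletal development, and Nkx3-2, a homeobox gene of the sclerotome. Nkx3-2, also a short gene (2.86 kb) on chromosome 5, had its peak downstream, 3.29 kb from the gene start, whereas Uncx had peaks on both sides. The closest peaks of Meox1, Tbx15 and Pax7 lay upstream at 13.1, 15.6 and 14.1 kb. Pax7 also had a peak 33.9 kb upstream and another inside the gene, 57.8 kb from its start. Both peaks of Pax3 were inside the gene, 19.1 and 75.9 kb from the start. No peak was listed for Pax1 or Pax9, regulators of the sclerotome, or for Tbx18, which marks the rostral part of each somite.

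Among genes for other synaptic proteins with leucine-rich repeats, 2 of 26 had a peak (7.69%, 2.14 to 24.1%), a share close to the 6.15% of all genes. Both were distant: the peak of Lrrtm3 lay 536 kb upstream and that of Lrrc4c 191 kb from its start, in both cases outside the gene. Elfn2, the paralogue of Elfn1, had no listed peak. Of the metabotropic glutamate receptor genes, 3 of 8 had a peak (37.5%, 13.7 to 69.4%). Grm7, whose product ELFN1 recruits at synapses onto interneurons, had a peak 1.61 kb upstream of its start, on chromosome 6 at 110593100 to 110594250. Grm4, of the same receptor group, had a peak of 1551 bp inside the gene, 45.0 kb from the start, and Grm3 had a peak 44.6 kb upstream and another 168 kb into the gene. Grm6, the receptor of retinal bipolar cells that ELFN1 binds, had none, and neither did Grm8. Both belong to the receptor group of Grm4 and Grm7, and Grm3 does not. Counting only peaks inside the gene or within 5 kb of its start, 3 of the 27 somite and skeletal regulators, 0 of the 26 synaptic genes and 3 of the 8 receptor genes had one, beside 2.27% of all protein-coding genes. The intervals cover counting error only, genes differ in length and in the space around them, and these lists were drawn up with earlier results of the data known, so no test was made.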

How the data were processed

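Reads were mapped with Bowtie to NCBIM37 (mm9), per the submitters' processing notes. The authors deposited 1 peak table for the macroH2A1 library. Per the file's own columns, peaks carry names starting with CCAT, a peak caller, and each was assigned by nearest gene start. Version, threshold and control of the caller were not given in the sources used here. No enrichment score is in the deposited table. Distances from the gene start to the closest peak edge were computed here from the deposited positions, without sign. Widths followed from the deposited starts and ends in every row, all on multiples of 50 bp. Gaps and stretches used the 2558 distinct regions.

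Names and gene order came from the RefSeq table of GRCm38.p6 and promoters from the matching sequence table, in which both genes were found. List genes (61 of 61 matched by symbol) were counted as having a peak where a listed symbol or synonym matched on the same chromosome. Of the peaks, 891 have no symbol and could not be counted. By rule the genes named are Uncx, Elfn1, their neighbours, and list members with a peak. List members without a peak and the genes used for comparison were named after their values were seen. The members and lists were chosen with earlier results of these data known. Position functions were tested on simulated data (Python 3.11.15, pandas 2.3.3, scipy 1.17.1).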

Additional observations from a re-analysis of the deposited data

How the results depend on the processing

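The 9 peaks of the window were also 9 with the window 100 kb shorter or longer at each end. A shorter window could not lower this count, since peaks listed under Uncx or Elfn1 are kept whatever its edges. A longer window could not raise it, since the nearest peaks outside end at 139313700 and start at 141309450. The count was 7 with only peaks above the median width. With peaks less than 5 kb apart joined it was 6, and the 5 Elfn1 peaks became 2. By the nearest start or end of the genes in the list, Uncx had 4 peaks and Elfn1 5, and among wider peaks 3 and 4. Only genes with a listed peak entered this reassignment. The genes between and beside the pair have none listed and could not take a peak, so the 4 and 5 do not check the assignment against them. The median gap was 14949 bp between edges and 16863 bp between midpoints. With the grid of windows shifted by 450 kb, 0.291% of windows held at least 9 peaks, and among wider peaks 0.0745% held at least 7. Counting only peaks inside the gene or within 5 kb of its start, the somite and skeletal regulators with a peak numbered 3 in place of 5, the synaptic genes with leucine-rich repeats 0 in place of 2, and the glutamate receptor genes 3 as before, against 2.27% of all protein-coding genes by this count. The drop follows from leaving out distant peaks. No paired analysis was possible because each group has 1 library. The lack of a replicate and of a score or read count per peak limits all values to this list.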
